A study of Mus musculus with 19 samples.

Results

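The genes described here are the 10 named members of the insulin-like growth factor (IGF) and hepatocyte growth factor (HGF) system among the 49089 genes counted in mouse endometrium. They were matched by symbol in the GENCODE annotation of mouse build GRCm38, and 9 of the 10 passed the expression filter that kept 17222 genes. The members were the growth factor genes Igf1 and Hgf, the receptor genes Igf1r and Met, and the binding protein genes Igfbp2, Igfbp3, Igfbp4, Igfbp5, Igfbp6 and Igfbp7. RNA was sequenced from 19 pooled endometrial samples of wild-type (WT) C57Bl/6 females, scraped free of the myometrium, to follow the change from estrus to the time around implantation. The 3 CONT libraries, numbered 1, 2 and 4, came from untreated virgin females around ovulation. The mated females were aged 8 to 14 weeks, and the age of the CONT females is not given in the sources used here. The 4 INT libraries came from females on day 3.5 pc (post coitum) after mating with intact Balb/c males. The SVX, SVX_VAS and VAS groups, with 4 libraries each, came from females on the same day after mating with Balb/c males that had undergone surgery. For these 12 libraries the sample titles and the column names give different surgeries, so the column names are used here as group names and no value is attributed to a surgery. The CONT tissue was collected late in the evening and the day 3.5 pc tissue at midday, so cycle stage, mating and hour of collection cannot be told apart in any comparison with CONT.

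IGF1 is a secreted growth factor that binds the receptor tyrosine kinase IGF1R, and in the uterus it is known as a stromal signal that drives growth of the epithelium. The IGF binding proteins hold IGFs in the tissue fluid and matrix, limit or prolong their access to the receptor, and release them when proteases cut them. HGF is a mesenchymal growth factor, secreted as an inactive single chain, that signals after proteolytic cleavage to epithelial and endothelial cells through the receptor MET.

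Totals ran from 12661266 counts in an SVX library to 31781270 in a CONT library, which leaves little counting error for every member except Igfbp2. Levels are CPM, counts scaled to a common library total with edgeR's TMM factors, and nothing in the labels says whether 2 pools of a group shared animals, so the errors measure the spread between pools. Libraries of 2 kinds stood apart. VAS replicates 2 and 3 had 95.8% and 95.9% of counts in protein-coding genes against 89.9% to 93.1% elsewhere, and their stromal marker list (10 genes) summed to 2237 and 2425 CPM against 7600 to 11097 CPM in the other mated libraries. They differed beyond stromal markers. Counts fell on 25016 and 25037 genes, against 27757 to 29626 elsewhere, and their TMM factors were 1.29 and 1.33, against 0.846 to 1.02. Epithelial markers summed to 996 and 722 CPM, against 1075 to 3694 CPM in the other mated libraries, and neutrophil markers to 45.2 and 55.6 CPM, against 6.86 to 19.4 CPM elsewhere. Pearson's r of log2 CPM with VAS replicates 1 and 4 was 0.750 to 0.777. INT replicates 1 and 2, SVX_VAS replicate 2 and VAS replicate 1 had median levels of 7 estrogen-response genes between 8.77 and 10.80 log2 CPM, against 3.97 to 7.65 in the other mated libraries and 10.87 to 11.48 in CONT.

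The sequences upstream of the members are shown because the windows of Hgf and of the receptor genes differed in base composition. RefSeq gives 12 windows for the 10 members on GRCm38.p6, and each window below covers the bases before the RefSeq transcript start, 5′ to 3′ on the coding strand. Distances are counted from that start. For Igf1r, Igfbp6, Igfbp7 and the first Igfbp2 window, the bases after it were not found in the gene's GENCODE transcripts. Distances there are therefore not from the GENCODE gene start. Capitals mark matches, on either strand, to the estrogen receptor core motif with the letters GGTCA, the progesterone receptor core motif with the letters TGTTCT, the TATA box spelled TATAAA, the GC box spelled GGGCGG, the E-box spelled CACGTG and the AP-1 motif spelled TGANTCA, none of which overlap in the printed stretches. The Hgf window lies at chr5:16553245-16553494 on the plus strand, the Igf1r window at chr7:67952007-67952256 on the plus strand, the Igfbp3 window at chr11:7213924-7214173 on the minus strand and the Igfbp4 window at chr11:99040994-99041243 on the plus strand. For Met only chr6:17463707-17463799 on the plus strand is shown, the 93 bases that precede the annotated exon.
Hgf: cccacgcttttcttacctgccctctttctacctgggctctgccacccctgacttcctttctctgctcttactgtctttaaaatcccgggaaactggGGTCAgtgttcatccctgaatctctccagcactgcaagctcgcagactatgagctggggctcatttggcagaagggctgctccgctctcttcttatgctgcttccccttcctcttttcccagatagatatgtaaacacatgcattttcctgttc
Igf1r: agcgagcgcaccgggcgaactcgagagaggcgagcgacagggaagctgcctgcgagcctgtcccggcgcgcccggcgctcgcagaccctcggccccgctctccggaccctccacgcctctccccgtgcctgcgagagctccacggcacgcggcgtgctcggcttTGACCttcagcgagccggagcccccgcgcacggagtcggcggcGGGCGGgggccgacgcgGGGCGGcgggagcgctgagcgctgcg
Met: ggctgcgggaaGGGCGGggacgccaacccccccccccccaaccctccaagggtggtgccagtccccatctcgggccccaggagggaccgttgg
Igfbp3: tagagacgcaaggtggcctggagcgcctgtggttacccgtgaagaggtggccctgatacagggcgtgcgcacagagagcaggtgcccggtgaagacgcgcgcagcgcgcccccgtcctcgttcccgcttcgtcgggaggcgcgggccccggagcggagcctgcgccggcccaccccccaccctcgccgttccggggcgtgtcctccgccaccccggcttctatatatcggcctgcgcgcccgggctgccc
Igfbp4: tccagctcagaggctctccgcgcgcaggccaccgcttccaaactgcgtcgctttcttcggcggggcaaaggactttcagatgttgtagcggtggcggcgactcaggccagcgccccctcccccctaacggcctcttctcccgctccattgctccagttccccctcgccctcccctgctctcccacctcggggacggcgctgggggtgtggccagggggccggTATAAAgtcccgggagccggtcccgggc
The ratio of observed to expected CpG dinucleotides was 0.271 in the Hgf window and 0.305 in the Igf1 window, below the median of 0.373 over 32817 mouse windows of the same length. All 250 bases of the Igf1 window and 157 of the 250 bases of the Met window lie in annotated exons, so these are not purely upstream sequence. The same holds for 65 bases of the second Igfbp2 window, 150 of the second Hgf window and 19 of the Igfbp5 window. The CpG ratio was 1.12 for Igf1r, 0.958 for Igfbp3, 0.788 for Igfbp7, 0.748 for Igfbp4 and 0.704 over the full Met window, all above that median. The GGTCA motif occurred in the windows of Hgf, 154 bases before the start, Igf1, Igf1r, Igfbp6 and Igfbp7 and in 1 of the Igfbp2 windows, and 35.2% of all mouse windows hold it. The progesterone receptor core motif was present in 1 Igfbp2 window only, against 16.1% of all windows. The TATA box began 28 bases before the start in Igfbp4 and 148 bases before it in Igfbp6, and was matched in 12.4% of all windows. The GC box was found in the windows of Igf1r, Met, Igfbp2 and Igfbp7 and in 32.7% of all windows. The E-box was found for Igfbp2 and Met and in 6.02% of all windows, and the AP-1 motif for Igf1, Igfbp2 and Met and in 6.75% of all windows. Several matches lay within annotated exons and not before them. These were the AP-1 motifs of Igf1, Igfbp2 and Met, the GGTCA motifs of Igf1 and Igfbp2, the Met E-box, and the Met GC boxes at 117 and 20 bases before the start. The Igfbp3 window held none of the 6 motifs.

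Igf1, the IGF ligand (chr10:87858265-87937042, plus strand), was low at estrus and high in every mated group. Its CONT levels were 101, 156 and 119.7 CPM in replicates 1, 2 and 4. In INT replicates 1 to 4 they were 831, 584, 909 and 969 CPM. The lowest INT library was therefore above the highest CONT library, and the group means were 823 ± 169 CPM (SD, n = 4) and 126 ± 28.1 CPM (SD, n = 3) (fitted fold 6.55). SVX libraries held 811, 1009, 1008 and 990.2 CPM of Igf1. SVX_VAS libraries held 974, 869, 987 and 872 CPM. Both groups overlapped with INT and spread less than INT did, and SVX replicate 1 was low beside the other SVX libraries, whereas the VAS libraries were spread wide. VAS replicates 1 to 4 measured 511, 361, 343 and 979.7 CPM, and the 2 lowest were the libraries with little stromal marker RNA. The logFC of Igf1 by edgeR's quasi-likelihood test was 2.71 (SE 0.32, FDR 1.01e-05) for INT, 2.92 (SE 0.32, FDR 3.38e-06) for SVX, 2.88 (SE 0.32, FDR 5.05e-06) for SVX_VAS and 2.13 (SE 0.31, FDR 4.14e-05) for VAS against CONT. The 4 comparisons share the same 3 CONT libraries. In bulk tissue, fewer cells of a type and less RNA per cell cannot be told apart, which holds for each value here. In the order of group means CONT was lowest, followed by VAS, INT, SVX_VAS and SVX, and only CONT did not overlap with its neighbour.

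**Figure D1:**
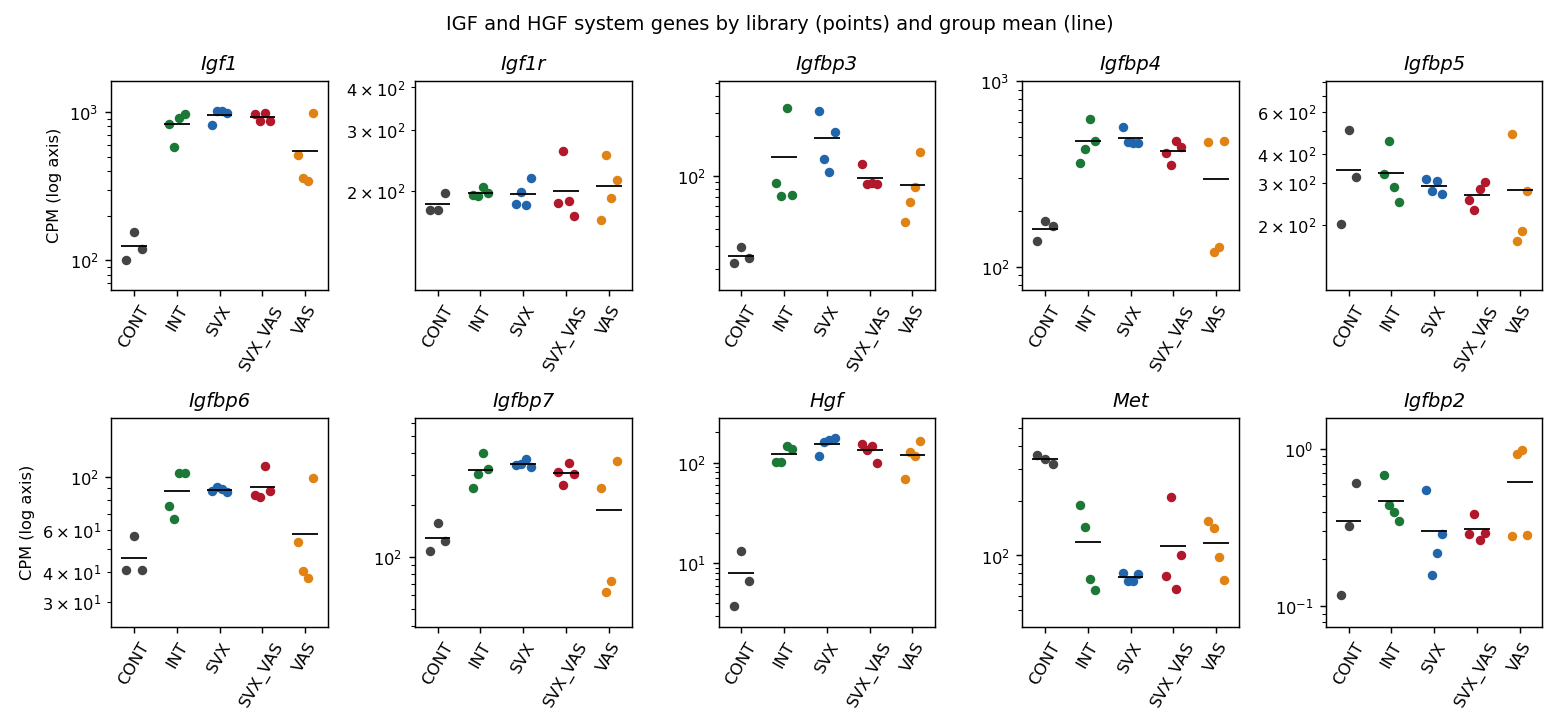
Level of each gene in CPM on a log axis, 1 panel per gene and 1 point per library, with groups on the horizontal axis and a line at the group mean. Igf1, Igfbp3 and Hgf are above the CONT points in all 16 mated libraries and Met is below them, Igf1r is flat, and the Igfbp2 panel rests on 2 to 21 counts per library.

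Igf1r, the receptor for IGF1 (chr7:67952827-68233668, plus strand), did not pass the test in any comparison. CONT libraries measured 176, 176 and 198 CPM, and INT libraries 195, 194, 206 and 197 CPM. The ranges overlapped, with means of 183 ± 12.5 CPM (SD, n = 3) and 198 ± 5.48 CPM (SD, n = 4). The logFC was 0.11 (95% confidence interval -0.19 to 0.42, FDR 0.562 by edgeR) for INT, 0.10 for SVX, 0.13 for SVX_VAS and 0.17 for VAS, so a change beyond 0.48 in either direction lay outside the interval in each of the 4 comparisons. The widest spread was in SVX_VAS, from 169 to 261 CPM, and all 5 groups overlapped.

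Of the binding protein genes, Igfbp3 had the largest logFC against CONT in each mated group. Igfbp3, on chr11:7206086-7213923 (minus strand), encodes the main IGF carrier of the circulation. It measured 22.2, 29.3 and 24.1 CPM in CONT and 88.6, 71.0, 326 and 72.7 CPM in INT, where replicate 3 stood far above the others. SVX libraries measured 312, 136, 107 and 217 CPM, SVX_VAS libraries 124, 86.9, 88.7 and 87.3 CPM, and VAS libraries 44.9, 63.8, 82.8 and 153 CPM. No mated library reached down to the CONT range. The logFC was 2.47 (SE 0.57, FDR 0.00200) for INT, 2.94 (SE 0.58, FDR 0.000438) for SVX, 1.94 (SE 0.55, FDR 0.00761) for SVX_VAS and 1.77 (SE 0.55, FDR 0.0119) for VAS in edgeR. Without INT replicate 3, the INT logFC was 1.58 and the gene still passed.

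Igfbp4, on chr11:99041244-99054392 (plus strand), encodes a carrier known mainly as an inhibitor of IGF action and as the classic substrate of the protease PAPPA. CONT libraries measured 137, 176 and 165 CPM and INT libraries 362, 433, 625 and 473 CPM. SVX libraries measured 569, 470.4, 466 and 464 CPM and SVX_VAS libraries 408, 351, 478 and 441 CPM. All 12 of these mated libraries were above CONT. VAS was split, with 468 and 476 CPM in replicates 1 and 4 and 119.9 and 128 CPM in replicates 2 and 3, which lay below every CONT library. The logFC against CONT was 1.57 (SE 0.41, FDR 0.00463) for INT, 1.63 (SE 0.41, FDR 0.00282) for SVX and 1.39 (SE 0.40, FDR 0.00822) for SVX_VAS, and the VAS value of 0.90 (SE 0.40) did not pass (edgeR FDR 0.0634). It passed with DESeq2 (FDR 0.0354), with upper quartile scaling in edgeR (FDR 0.0254), without VAS replicate 2 (logFC 1.19) or VAS replicate 3 (logFC 1.18), and without both and SVX replicate 1 (logFC 1.59).

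Igfbp7 (chr5:77349240-77408041, minus strand) encodes a related secreted protein with weak affinity for IGFs, known also from vessel walls. It measured 107, 158 and 123 CPM in CONT and 252, 301, 400.0 and 324 CPM in INT. SVX libraries held 341, 347, 368 and 334 CPM and SVX_VAS libraries 311, 262, 350.3 and 302 CPM, again without overlap with CONT. In VAS the values were 249.7 and 361 CPM in replicates 1 and 4 and 63.0 and 72.3 CPM in replicates 2 and 3. The logFC was 1.30 (SE 0.44, FDR 0.0236) for INT, 1.42 (SE 0.45, FDR 0.0122) for SVX, 1.24 (SE 0.44, FDR 0.0263) for SVX_VAS and 0.53 (SE 0.43, FDR 0.310) for VAS. The INT call was lost in edgeR without CONT replicate 1 (FDR 0.0893), CONT replicate 4 (FDR 0.0689) or INT replicate 3 (FDR 0.0607). The SVX call was lost without CONT replicate 1 (FDR 0.0528), and the SVX_VAS call without CONT replicate 1 (FDR 0.0949), CONT replicate 4 (FDR 0.0730) or SVX_VAS replicate 3 (FDR 0.0552). An exon of Polr2b overlaps Igfbp7 on the opposite strand, and whether the counting used strand is not given in the sources used here.

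Igfbp6 (chr15:102144362-102149511, plus strand), which encodes a carrier with a preference for IGF2, was called higher in INT, SVX and SVX_VAS and not in VAS. CONT libraries measured 40.7, 56.5 and 40.7 CPM and INT libraries 75.9, 66.7, 105 and 104 CPM. SVX libraries lay between 87.0 and 91.1 CPM and SVX_VAS libraries between 82.7 and 111 CPM, so these 3 mated groups did not overlap with CONT. VAS replicates 1 to 4 measured 53.7, 40.4, 37.6 and 99.6 CPM and did overlap. The logFC was 0.93 (SE 0.27, FDR 0.0102) for INT, 0.95 (SE 0.27, FDR 0.00733) for SVX, 0.99 (SE 0.27, FDR 0.00607) for SVX_VAS and 0.33 (SE 0.27, FDR 0.309) for VAS. Under a stricter edgeR test that the change exceeds a logFC of 0.58 (glmTreat), neither Igfbp6 (FDR 0.138) nor Igfbp7 (FDR 0.104) passed in INT against CONT. Both also lost their calls under that test in SVX (FDR 0.0974 and 0.0508) and SVX_VAS (FDR 0.0850 and 0.109).

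Igfbp5 and Igfbp2 did not pass the test in any comparison with all libraries in the fit. Igfbp5 (chr1:72857932-72874884, minus strand) encodes a carrier that binds extracellular matrix. CONT libraries measured 203, 505 and 319 CPM, a wide spread shared by VAS (171 to 482 CPM), and INT libraries measured 328, 454, 289 and 249.9 CPM. The logFC for INT was -0.05 (95% confidence interval -0.74 to 0.64, FDR 0.920 by edgeR), and the values for SVX, SVX_VAS and VAS were -0.23, -0.35 and -0.29. Without VAS replicate 1 it was called lower in VAS against CONT (logFC -0.68, FDR 0.0433). Igfbp2 (chr1:72824503-72852474, plus strand) lies beside Igfbp5 on the chromosome and was near the limit of detection, with 2 to 9 counts in 17 libraries and 20 and 21 counts in VAS replicates 2 and 3. It did not reach the filter, and when tested without it gave an FDR of 0.650 for INT and 0.261 for VAS against CONT.

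Hgf, the ligand of MET (chr5:16553495-16620152, plus strand), had the largest logFC against CONT of the 9 tested genes in all 4 mated groups. CONT libraries measured 3.75, 13.4 and 6.67 CPM, from 63 to 372 counts. INT libraries measured 102, 101, 146 and 137 CPM. The gap between the groups was wide, and INT averaged 121 ± 23.4 CPM (SD, n = 4) against 7.92 ± 4.93 CPM (SD, n = 3) (fitted fold 15.1). SVX libraries measured 117, 160.0, 167 and 175 CPM, SVX_VAS libraries 155, 135, 147 and 99.1 CPM, and VAS libraries 68.9, 127, 117 and 163 CPM. The lowest of the 16 mated libraries, VAS replicate 1, was thus still far above CONT replicate 2. The logFC was 3.92 (SE 0.39, FDR 3.28e-06) for INT, 4.27 (SE 0.39, FDR 1.10e-06) for SVX, 4.06 (SE 0.39, FDR 1.87e-06) for SVX_VAS and 3.88 (SE 0.39, FDR 2.50e-06) for VAS. Without CONT replicate 2, the highest CONT library, these values were 4.55, 4.90, 4.69 and 4.52, and without CONT replicate 1 they were 3.58, 3.93, 3.72 and 3.55. Unlike Igf1, Igfbp4, Igfbp6 and Igfbp7, Hgf was not low in VAS replicates 2 and 3. The predicted gene Gm43489 overlaps exons of Hgf on the same strand.

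Met, the HGF receptor (chr6:17463800-17573980, plus strand), was the only member called lower in mated than in estrous endometrium with all libraries in the fit. CONT libraries measured 356, 338 and 317 CPM and INT libraries 189.9, 143, 73.9 and 65.0 CPM. SVX libraries were close together at 80.2, 72.0, 72.6 and 78.7 CPM. SVX_VAS libraries measured 77.1, 209, 65.1 and 100.3 CPM and VAS libraries 155, 142, 97.7 and 73.2 CPM. All 16 mated libraries were below CONT, and the highest of them, SVX_VAS replicate 2 and INT replicate 1, belonged to the set with high estrogen-response genes. The logFC was -1.51 (SE 0.39, FDR 0.00456) for INT, -2.15 (SE 0.40, FDR 0.000241) for SVX, -1.58 (SE 0.39, FDR 0.00298) for SVX_VAS and -1.53 (SE 0.39, FDR 0.00350) for VAS in edgeR. Without the 4 libraries high in estrogen-response genes, a choice made after seeing the data, the logFC was -2.28 for INT, -2.15 for SVX, -2.06 for SVX_VAS and -1.69 for VAS.

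**Figure D2:**
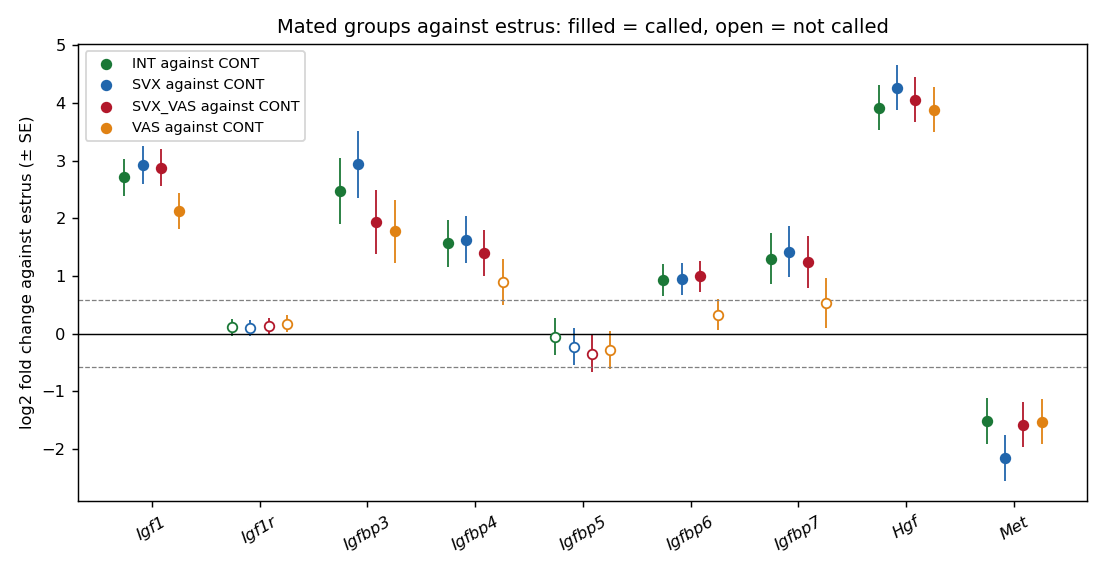
The logFC of each mated group against CONT (vertical axis, log2 scale) for the 9 tested genes (horizontal axis), with bars of 1 SE, filled points for called genes and dashed lines at a logFC of 0.58 in either direction. Hgf lies between 3.88 and 4.27, Met between -2.15 and -1.51, and the VAS points of Igfbp4, Igfbp6 and Igfbp7 are open.

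A gene was called at an FDR of 0.05 or less with a logFC of at least 0.58 in size. In INT against CONT, 6 members were called higher and 1 lower of 9 tested, while 20.9% of all genes tested were called higher and 12.7% lower, which is 33.6% in either direction. The groups did not overlap for these 7 members, against 62.3% of all genes. The counts were also 6 higher and 1 lower in SVX, where 23.1% of all genes were called higher and 18.5% lower (41.6% in either direction) and 70.9% did not overlap. They were the same in SVX_VAS, where 22.2% were called higher and 16.5% lower (38.6% in either direction) and 67.5% did not overlap. In VAS, 3 members were called higher and 1 lower, with 23.3% of all genes called higher and 17.3% lower (40.6% in either direction), and 4 members did not overlap, against 55% of all genes. The median logFC over the 9 members was 1.30, 1.42, 1.24 and 0.53 in INT, SVX, SVX_VAS and VAS, beside medians over all tested genes of -0.01, -0.01, -0.02 and -0.07. Without VAS replicates 2 and 3 and SVX replicate 1, 7 members were called in VAS against CONT, as Igfbp4 (logFC 1.59), Igfbp6 (logFC 0.76) and Igfbp7 (logFC 1.26) also passed in edgeR. VAS then held only replicates 1 and 4, and replicate 1 was among the libraries high in estrogen-response genes. In that fit 23% of all genes were called higher and 13% lower.

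Per kilobase of exon, the order of the members changed between estrus and day 3.5 pc. In CONT the levels were 107 ± 21.4 CPM per kb for Igfbp7 (SD, n = 3), 57.0 ± 25.4 for Igfbp5, 43.9 ± 2.57 for Met, 41.3 ± 8.20 for Igfbp6, 36.1 ± 4.56 for Igfbp4, 12.7 ± 2.84 for Igf1, 10.9 ± 0.746 for Igf1r, 8.04 ± 1.17 for Igfbp3 and 1.10 ± 0.685 for Hgf. The neighbours Igfbp5 and Met, Met and Igfbp6, Igfbp6 and Igfbp4, and Igf1 and Igf1r each differed by less than their spread. In INT, Igfbp7 (264 ± 51.0 CPM per kb) was followed by Igfbp4 (107 ± 25.2), Igf1 (83.1 ± 17.1) and Igfbp6 (79.0 ± 17.5), and the steps from Igfbp4 to Igf1 and from Igf1 to Igfbp6 were smaller than the spread. Hgf (16.9 ± 3.25) and Met (15.4 ± 7.72) were then at like levels. Igfbp7 ranked highest and Igfbp2 lowest in all 5 groups.

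Ratios within a library describe the same shift and carry no test. Igf1 per Igf1r, on the per-kb scale, averaged 1.17 ± 0.292 in CONT (SD, n = 3), 7.04 ± 1.37 in INT, 8.30 ± 0.891 in SVX, 8.06 ± 1.61 in SVX_VAS and 4.60 ± 2.40 in VAS (SD, n = 4 each). The summed level of Igfbp3 to Igfbp7 per Igf1 was 19.6 ± 0.303 in CONT, with the 3 libraries between 19.3 and 19.9, and 6.78 ± 1.67 in INT. It was 6.19 ± 1.09 in SVX, 5.42 ± 0.399 in SVX_VAS and 6.13 ± 1.90 in VAS. All 16 mated libraries, VAS replicates 2 and 3 included (4.51 and 5.22), were below the CONT libraries in this ratio, the highest at 8.83 in VAS replicate 1. Hgf per Met was 0.0253 ± 0.0157 in CONT and 1.42 ± 0.881 in INT, and it ran from 0.475 to 2.46 over the mated libraries. Igfbp5 made up 22.1% ± 4.82 of the summed binding protein level in CONT and 10.5% ± 3.88 in INT, while the share of Igfbp7 was 43.2% ± 1.77 and 48.2% ± 1.89. The Igfbp5 share was 8.27% ± 0.408 in SVX, 8.87% ± 0.816 in SVX_VAS and 15.1% ± 4.8 in VAS, where it overlapped with CONT. The Igfbp7 share was 48.9% ± 3.86 in SVX and 50.01% ± 0.674 in SVX_VAS, and in VAS it was 40.2% ± 9.23, from 31.7% to 50.5%.

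**Figure D3:**
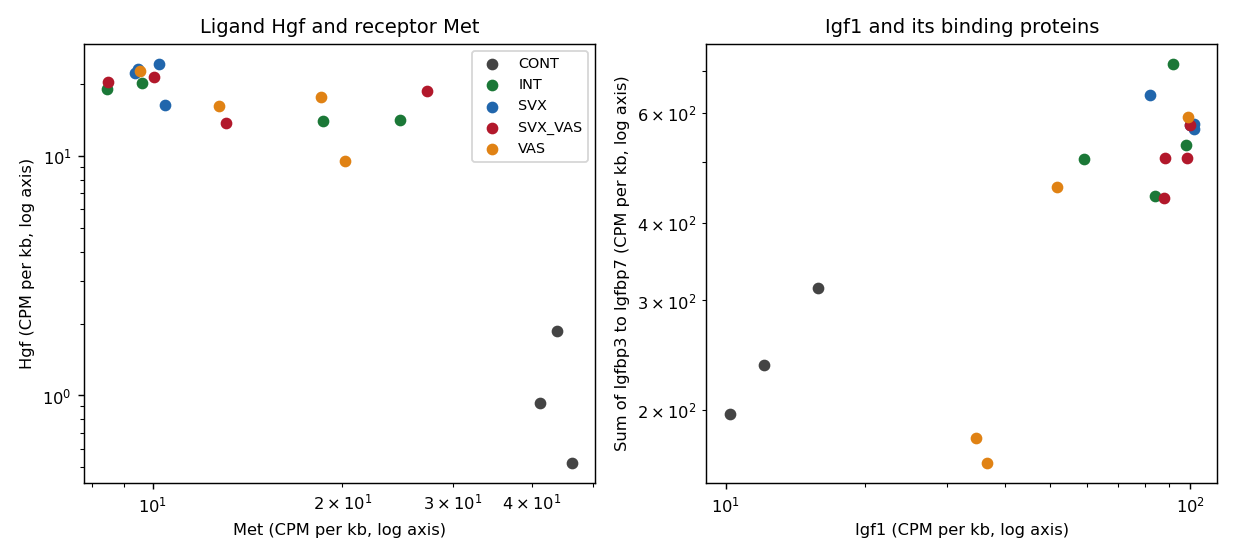
Left, Hgf against Met, and right, the sum of Igfbp3 to Igfbp7 against Igf1, each in CPM per kb on log axes with 1 point per library. The 3 CONT libraries sit apart at high Met with low Hgf, and VAS replicates 2 and 3 have low binding protein sums at an Igf1 level between CONT and the other mated libraries.

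Some markers of the tissue's cell types also moved in INT against CONT, where 20.9% of all genes were called higher and 12.7% lower. The epithelial list (9 genes) summed to 4828 to 5770 CPM in CONT and 1096 to 3443 CPM in INT, with 4 of 9 lower in INT against CONT and none at 0. The stromal list summed to 6360 to 6843 CPM in CONT and 8460 to 11097 CPM in INT, with 6 of 10 higher. The endothelial list (7 genes) summed to 171 to 248 CPM and 631 to 947 CPM, with 7 of 7 higher. Epithelial and stromal markers were present in all 19 libraries, as the label endometrium calls for, and 5 of 8 macrophage markers were higher and 2 lower in INT. The estrogen-response list had 1 of 7 lower and the progesterone-response list 6 of 7 higher. The median logFC of the estrogen-response list was -2.01, and INT was split. This list summed to 11683.5, 4521, 213 and 280 CPM in INT replicates 1 to 4, against 15235 to 17948 CPM in CONT. Also higher were 4 of 6 glandular epithelial markers, 1 of 7 smooth muscle markers and 4 of the 5 tested red blood cell markers, while none of 8 proliferation genes was called. Of markers of other sources, 1 higher and 1 lower of 2 tested for neutrophils, 1 higher of 1 for liver, 1 higher and 1 lower of 3 for the blastocyst and none of 3 for mesothelium and fat were called. Krt8 is in both the blastocyst and the epithelial list, and the study names the liver-list gene Ttr among its most upregulated endometrial genes on day 3.5 pc. These 2 lists are therefore not specific to another source. The liver list summed to at most 6.09 CPM in INT, and the blastocyst genes Pou5f1 and Cdx2 were at 0 in all CONT and INT libraries. As a share of the epithelial sum, a comparison chosen after its values were seen, Met was 6.40% ± 0.518 in CONT (SD, n = 3), 5.71% ± 0.766 in INT, 6.29% ± 0.677 in SVX, 5.79% ± 0.461 in SVX_VAS and 10.1% ± 4.39 in VAS, and CONT overlapped with each of them. As a share of the stromal, endothelial and macrophage sums, Met was lower in INT than in CONT without overlap. The CONT and INT means were 5.10% and 1.18% for stroma, 166% and 16.4% for endothelium, and 125% and 40.0% for macrophages. As a share of the stromal sum, Igf1 was 1.91% ± 0.488 in CONT and 8.52% ± 2.30 in INT, and Hgf was 0.121% ± 0.0795 and 1.26% ± 0.330. Neither ligand's share overlapped between these groups. Igfbp4 was 2.42% ± 0.353 and 4.90% ± 1.30 of the stromal sum, Igfbp7 was 1.97% ± 0.457 and 3.30% ± 0.782, and Igfbp6 was 0.699% ± 0.164 and 0.913% ± 0.269, the last 2 with overlapping ranges. As a share of the endothelial sum these 3 were lower in INT without overlap, at 76.9% ± 5.09 in CONT and 59.4% ± 6.38 in INT for Igfbp4, 61.9% ± 2.36 and 40.2% ± 3.69 for Igfbp7, and 22.1% ± 2.19 and 11.0% ± 0.985 for Igfbp6. Hgf was higher in INT on this scale, at 3.59% ± 1.63 in CONT and 15.3% ± 0.667 in INT, and so was Igf1, at 59.9% ± 2.76 and 104% ± 20.1, both without overlap. In VAS, Hgf was at 16.2% ± 2.24 without overlap with CONT. Igf1 was at 74.3% ± 27.1 there and did overlap, with 54.3% and 47.8% in VAS replicates 2 and 3, below every CONT library. Igfbp3 was 0.334% to 0.460% of the stromal sum in CONT and 0.739% to 3.25% in INT, without overlap, and 11.6% to 12.96% and 7.91% to 34.4% of the endothelial sum, with overlap. The part of cell composition in the members' changes was not tested.

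**Figure D4:**
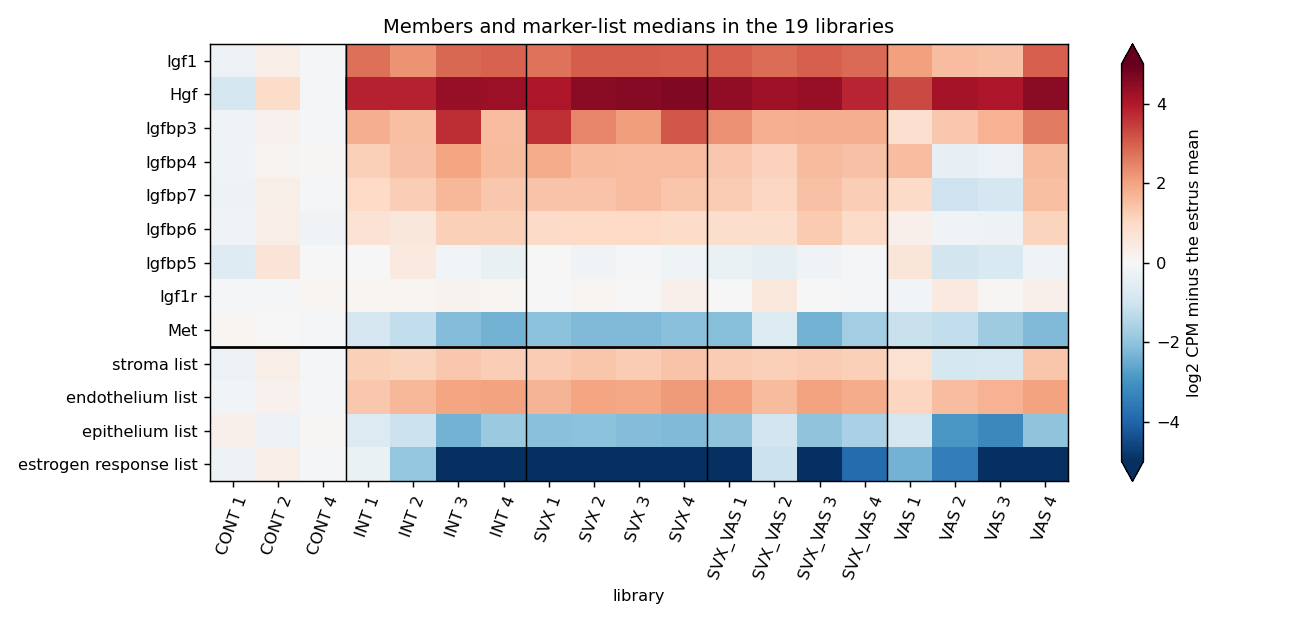
Difference in log2 CPM from the CONT mean (color scale, capped at 5 in either direction) for the 9 tested genes and for the median of 4 marker lists (rows) in the 19 libraries (columns). VAS replicates 2 and 3 are low in Igfbp4, Igfbp5, Igfbp7 and the stromal list but not in Hgf. Met is highest among mated libraries in SVX_VAS replicate 2 and INT replicate 1, which are also among the least reduced in the epithelial and estrogen-response lists.

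Among the mated groups, no member was called in any of the 6 comparisons between INT, SVX, SVX_VAS and VAS, and edgeR called 0% of all genes in each. At an unadjusted p under 0.05 there were 749 genes in SVX against INT, 339 in SVX_VAS against INT, 1831 in VAS against INT, 2651 in SVX against VAS, 240 in SVX against SVX_VAS and 2520 in SVX_VAS against VAS. The members among these were 0, 0, 2 (Igf1 and Igfbp6), 4 (Igf1, Igfbp3, Igfbp6 and Igfbp7), 0 and 2 (Igf1 and Igfbp6). DESeq2 called no member in these comparisons, and its largest count was 9 genes higher and 17 lower in SVX_VAS against VAS. limma-voom called 20 genes higher and 1643 lower in VAS against INT, 1634 higher and 22 lower in SVX against VAS, and 1711 higher and 96 lower in SVX_VAS against VAS. Igfbp6 was the only member among them, in SVX_VAS against VAS (logFC 0.78, FDR 0.0401), where limma-voom called 9.93% of all genes higher. The logFC of Igf1 in VAS against INT was -0.59 (95% confidence interval -1.16 to -0.01, edgeR FDR 0.452). For Hgf it was -0.03 (95% confidence interval -0.67 to 0.61) and for Met -0.01 (95% confidence interval -0.78 to 0.76). In SVX against INT the logFC was 0.21 for Igf1 (95% confidence interval -0.36 to 0.78), 0.35 for Hgf (95% confidence interval -0.29 to 0.99) and -0.64 for Met (95% confidence interval -1.41 to 0.14). Without the 4 libraries high in estrogen-response genes, chosen after seeing the data, the sign for Met turned. Its logFC was then 0.13 in SVX against INT and 0.59 in VAS against INT, not called in either. Without VAS replicates 2 and 3 and SVX replicate 1, the logFC in VAS against INT was -0.14 for Igf1, -0.20 for Igfbp6, -0.06 for Igfbp7 and -0.06 for Hgf, and in SVX against VAS it was 0.43 for Igf1 and 0.22 for Igfbp6, with no member called. Without VAS replicate 4, Igf1 (logFC -1.02, FDR 0.0318) and Igfbp6 (logFC -1.0, FDR 0.0270) passed in VAS against INT, in a group that then held the 2 libraries poor in stromal markers and VAS replicate 1, and 0.737% of all genes were called lower. In the same fit 3 members were called higher in SVX against VAS (Igf1, Igfbp6 and Igfbp7), with 2.79% of all genes, and 2 in SVX_VAS against VAS (Igf1 and Igfbp6), with 2.48%.

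The rest of the pathway was read from 6 lists with 43 genes, of which 37 were tested. In INT against CONT, 8 were called higher and 8 lower, beside 20.9% of all genes called higher and 12.7% lower, and the median logFC of the 37 was -0.05 beside -0.01 over all genes. Igf2, the second IGF ligand, was low throughout, with 0.834 to 1.07 CPM in CONT and 4.10 to 5.88 CPM in INT (logFC 2.38, SE 0.32, FDR 2.93e-05), and its logFC was 2.49, 2.41 and 2.78 in SVX, SVX_VAS and VAS. The exons of Igf2 overlap Igf2os on the opposite strand and Gm49394 on the same strand. Igf2r, the scavenger receptor of IGF2, and Insr, the insulin receptor, were not called, and Igfbp1, Igfals, Insrr and Igfbpl1 did not reach the filter.

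Of the IGFBP proteases and their inhibitors, 2 of 4 tested were called higher and 1 lower in INT. Of all genes, 20.9% were called higher and 12.7% lower there. Pappa, whose product cleaves IGFBP4, measured 5.59, 13.2 and 9.10 CPM in CONT and 28.7, 47.0, 41.0 and 65.0 CPM in INT (logFC 2.28, SE 0.32, FDR 4.33e-05). Stc1, which encodes an inhibitor of PAPPA, measured 1.96, 1.51 and 3.94 CPM in CONT and 13.2, 22.6, 17.5 and 33.7 CPM in INT (logFC 3.16, SE 0.38, FDR 1.01e-05). Both genes were without overlap between CONT and INT. Htra1, a secreted serine protease that can cut IGF binding proteins, fell (logFC -0.81, FDR 0.0257). Stc2, the other stanniocalcin, had a logFC of -1.60 (FDR 0.0919) in INT and of -3.59 (FDR 0.000641) without the 4 libraries high in estrogen-response genes. Its value of -3.11 (FDR 0.00306) in SVX was the largest called in this list there. In SVX_VAS and VAS the largest were those of Stc1, at 3.05 and 3.20. An exon of Gm41192 overlaps Stc1 on the opposite strand. Pappa2 did not reach the filter.

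The HGF activating proteases and their inhibitors, 6 genes that were all tested, had 5 called lower and none higher in INT against CONT. Their median logFC was -1.38, and 12.7% of all genes were called lower. The epithelial marker list also summed lower, at 4828 to 5770 CPM in CONT and 1096 to 3443 CPM in INT. The part of cell composition in this list's change was not tested. Hgfac, the HGF activator protease, measured 236, 271 and 217 CPM in CONT and 107, 53.6, 7.87 and 9.45 CPM in INT (logFC -2.44, SE 0.92, FDR 0.0372). Its 2 higher INT libraries were those with high estrogen-response genes, and without the 4 such libraries its logFC was -4.80 (FDR 0.000571). St14, which encodes matriptase, had a logFC of -1.84 (FDR 0.0133; -2.82 without those libraries), and Hpn, which encodes hepsin, one of -0.83 (FDR 0.0121). Spint1 and Spint2, which encode the membrane inhibitors of these proteases, had values of -1.24 (FDR 0.000409) and -1.36 (FDR 0.00212). Plau, which encodes urokinase, was not called (logFC -1.41, FDR 0.0560) but passed without those libraries (logFC -1.88, FDR 0.0164). In SVX 6 of 6 were called lower, in SVX_VAS 5 of 6 and in VAS 4 of 6, beside 18.5%, 16.5% and 17.3% of all genes. In VAS, St14 was not called without VAS replicates 2 and 3 and SVX replicate 1 (edgeR FDR 0.0723). Hgfac had the largest value in each group, at -5.07, -2.97 and -3.02. Its SVX_VAS libraries measured 5.55, 83.5, 8.57 and 25.7 CPM, so that value depends on replicate 2. The genes called lower encode both activators and inhibitors, and HGF itself is the substrate of the former. Mst1r, which encodes the receptor of the HGF-like protein, fell as well (logFC -1.08, FDR 0.000476, and -1.25, -1.14 and -1.05 in SVX, SVX_VAS and VAS), while its ligand gene Mst1 was not called.

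In INT, 20.9% of all genes were called higher and 12.7% lower. Of the adaptors and regulators of IGF1R and MET, 5 of 11 tested were called higher and none lower there. They were Irs1 (logFC 0.89, FDR 0.000833) and Irs2 (logFC 1.07, FDR 0.00204), docking proteins of IGF and insulin receptors, Gab1 (logFC 0.63, FDR 0.00717), a docking protein of MET, and Grb10 (logFC 0.84, FDR 0.000625) and Grb14 (logFC 1.13, FDR 0.00101), adaptors that restrain insulin and IGF receptors. The largest called values were those of Irs2 in SVX (1.46) and VAS (1.29) and of Grb14 in SVX_VAS (0.99). Of the PI3K, AKT and mTOR genes, 10 of 11 were not called in INT, where 33.6% of all genes were called in either direction. Pik3cb, which encodes a catalytic subunit of PI3K, fell (logFC -1.31, FDR 0.000667). It also had the largest called values of this list in SVX (-1.74), SVX_VAS (-1.38) and VAS (-1.24). Opposite-strand exons overlap 10 of the 43 genes, among them Irs1, Irs2 and Gab1.

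**Figure D5:**
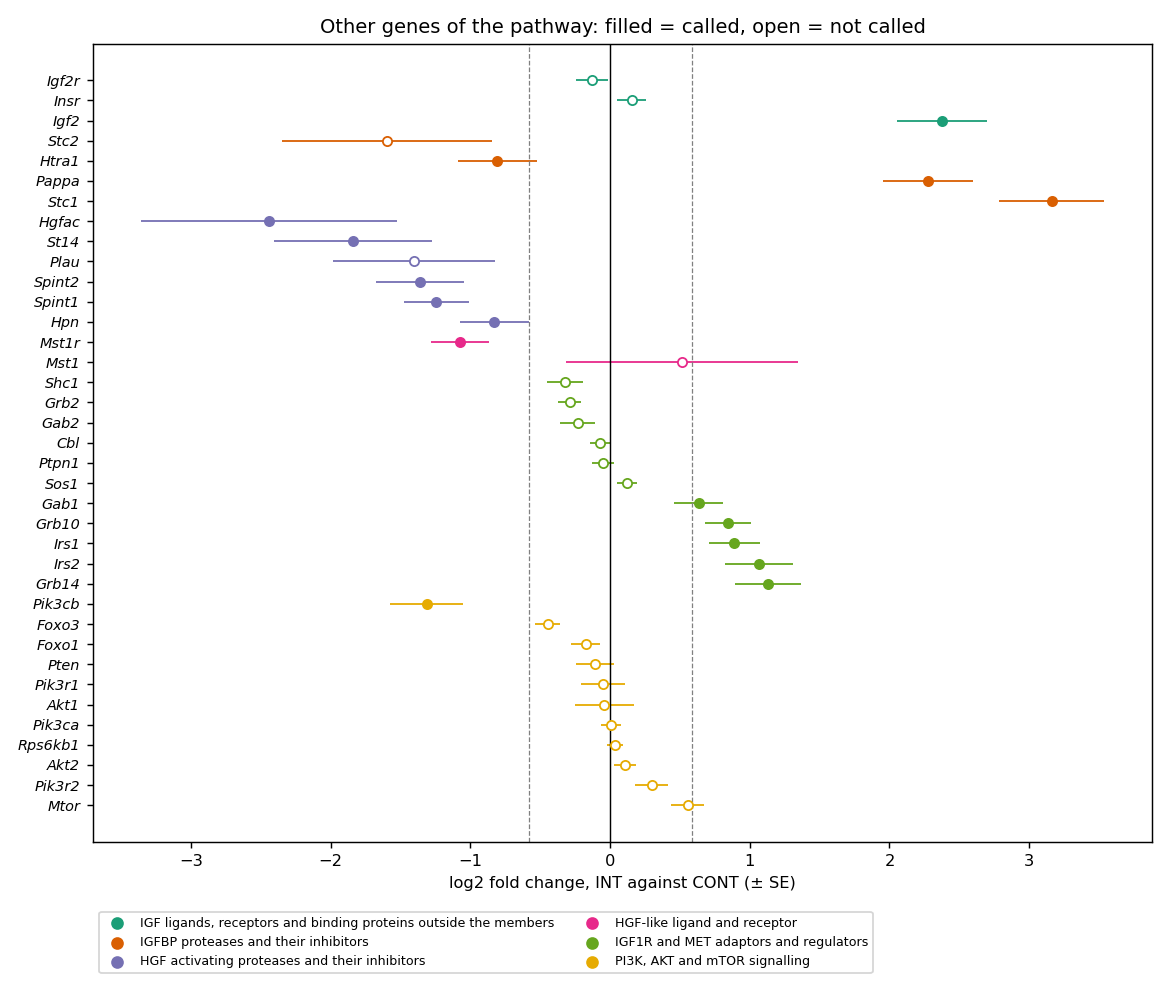
The logFC of INT against CONT (horizontal axis, log2 scale, bars of 1 SE) for the 37 tested genes of the pathway lists, colored by list, with filled points for called genes and dashed lines at 0.58 in either direction. The 6 genes of HGF activation lie between -2.44 and -0.83, whereas most PI3K, AKT and mTOR genes lie near 0.

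Across the 19 libraries, the genes most alike in pattern were sought among all tested genes by Pearson's r of log2 CPM, as a description in which all points share libraries and groups. For Igf1 they were Hoxa11os (0.992), Hoxa11 (0.992) and Rcn1 (0.991). Hoxa11 belongs to the stromal list and its antisense gene Hoxa11os overlaps its span on the opposite strand. For Hgf they were Tcaf1 (0.996), Cd83 (0.995) and Tfpi (0.995). For Met they were Eps8 (0.994), Stim2 (0.993) and Ahcyl2 (0.990). Igfbp7 was closest to Hoxd3os1 (0.994), Lgals1 (0.989) and Zeb2os (0.987), and Igfbp4 to Smarcd3 (0.986), Lgals1 (0.979) and Gm29100 (0.978). For Igfbp6 the list was Arap1 (0.969), the mesenchymal filament gene Vim (0.961) and Rhob (0.961), and for Igfbp3 it was Fzd1 (0.955), Pcolce (0.936) and Serpina3n (0.930). Igf1r and Igfbp5, which did not follow the groups, had no close match. Their highest values were 0.862 with Nfkb1, 0.841 with Dhx57 and 0.820 with Gsap for Igf1r, and 0.842 with Aebp1, 0.841 with Chrac1 and 0.839 with Colgalt1 for Igfbp5. Between members, r over the same 19 libraries was 0.970 for Igfbp4 with Igfbp7, 0.927 for Igf1 with Hgf, 0.520 for Igfbp7 with Hgf and -0.839 for Hgf with Met.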

How the data were processed

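Raw counts per gene for 19 endometrial libraries were deposited. Per the labels and the study's methods, the authors prepared libraries with a stranded total RNA kit, checked reads with FastQC, trimmed them with AdapterRemoval 2, aligned them with STAR to GRCm38/mm10 and counted them with featureCounts. The strand setting is not given in the sources used here, and unset strand would mix overlapping antisense genes. Symbols, positions and merged exon lengths came from GENCODE (740 genes had no symbol), and upstream sequences from RefSeq windows on GRCm38.p6.

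All 19 libraries and 5 groups were fitted together with edgeR 4.0.16 in R 4.3.3 (TMM scaling, quasi-likelihood test, Benjamini-Hochberg FDR over the 17222 genes that reached 3 CPM in 3 or more libraries). Calls needed an FDR no higher than 0.05 together with an absolute logFC no lower than 0.58. SE is the logFC divided by the square root of F, and intervals are 95%. CPM was computed from the total over kept genes multiplied by the TMM factor, and log2 CPM uses a prior count of 2. Only the main edgeR fit, for INT against CONT, was tested on simulated counts with known changes.

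The 10 members were named in every comparison. From the pathway lists were named the genes called in INT against CONT and the largest called value per list elsewhere, and for each member the 3 genes with the highest correlation. A list gene that is withheld is not reported here and enters no list count. Members, pathway lists and marker lists (also glandular epithelium, smooth muscle, neutrophil, proliferation, red blood cell, liver, blastocyst, and mesothelium and fat) were chosen with earlier results of these data known. Alternatives were DESeq2 1.42.0, limma-voom (limma 3.58.1), other scalings, filters and cutoffs, a replicate block, fits of 2 groups only, and fits without each library or without sets of libraries. The set of SVX replicate 1 and VAS replicates 2 and 3 was named before these fits, when earlier results of these data were known. Leaving it out keeps only replicates 1 and 4 in VAS. The deviations of same-numbered libraries correlated at -0.30 to 0.16 in INT against CONT, and no comparison had every pair above 0.1, so the numbers were not taken as pairs.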

Additional observations from a re-analysis of the deposited data

Results flagged for a closer look

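In groups of 4 libraries, 5 of the 40 sets of member levels held a library farther from the others than Dixon's 95% limit allows, where chance gives about 2 (1 in 20). Igfbp3 reached 325.7 CPM in INT replicate 3 against 71.0 to 88.6 CPM in the other INT libraries. Igfbp3 was also high in SVX_VAS replicate 1, at 123.9 CPM against 86.9 to 88.7 CPM. In SVX replicate 1, Igf1 was low at 811.1 CPM against 990.2 to 1009 CPM, and Igfbp4 was high at 568.8 CPM against 464 to 470.4 CPM. Igfbp6 was high in SVX_VAS replicate 3, at 111.4 CPM against 82.7 to 87.3 CPM. Causes were not tested.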

How the results depend on the processing

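No call against CONT reversed direction under any of the 12 alternatives or when any library of the compared groups was left out, and Igf1, Igfbp3, Hgf and Met were called against CONT in all 4 mated groups under each of them. Leaving out 1 library gave 6 to 7 called members in INT, SVX and SVX_VAS against CONT, 4 to 5 in VAS against CONT, 0 to 2 in VAS against INT, 0 to 3 in SVX against VAS, 0 to 2 in SVX_VAS against VAS, and 0 in the other comparisons. The upper values between mated groups came without VAS replicate 4, with 2 members in VAS against INT, 3 in SVX against VAS and 2 in SVX_VAS against VAS. With limma-voom, 1 member was called in SVX_VAS against VAS. Without SVX replicate 1 and VAS replicates 2 and 3, which left only replicates 1 and 4 in VAS, 7 members were called in VAS against CONT. Without the 4 libraries high in estrogen-response genes (chosen after seeing the data) 5 were, the added one being Igfbp5 called lower, with 47.5% of all genes called in that fit. Under glmTreat 5 members were called in INT, SVX and SVX_VAS against CONT, beside 19.4%, 29.4% and 24.5% of all genes, and in INT 2 genes each of the HGF activation and adaptor lists in place of 5. Of the 11 tested genes of the PI3K, AKT and mTOR list 1 was called in INT, against 4 by FDR alone. It was 2 with upper quartile scaling, without CONT replicate 2, INT replicate 1 or INT replicate 2, or without the 4 estrogen-high libraries. Of all genes, 33.6% were called in INT in the main fit and 48.1% by FDR alone. With upper quartile scaling 33.8% were called, and without the 4 estrogen-high libraries 40.7%. Causes were not tested. With the replicate block, the same 7, 7, 7 and 4 members were called in INT, SVX, SVX_VAS and VAS against CONT, and 5606 in place of 5791 genes in INT against CONT. Upper quartile scaling moved the median logFC of all genes from -0.01 to 0.12 in INT against CONT. Of the members, depth limits Igfbp2. Of the pathway genes it limits Igf2, with 11 to 27 counts per CONT library, and the genes below the filter.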
